A study of Homo sapiens with 30 samples.

Results

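Open chromatin was examined around 6 genes of the PGC-1 system: the coactivators PPARGC1A and PPARGC1B, the nuclear receptors ESRRA and ESRRG, and the target genes PDK4 and TFAM. They were represented by 437 of the 443894 regions scored in the series, namely every region whose summit lay within 100 kb of one of the 6 gene bodies in the RefSeq annotation of GRCh38.p14. PPARGC1A had 125 regions, PPARGC1B 97, ESRRG 79, ESRRA 71, PDK4 35 and TFAM 30. The genes were selected on the measured ranks of these peaks at 10 nM androgen and in vehicle, so values and counts of that contrast are a description, and nothing is read from them.

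The study asked how chromatin accessibility differs between low and high androgen exposure in the established lines LNCaP and VCaP, which were derived from human prostate cancer metastases and respond to androgen (VCaP also holds the TMPRSS2-ERG fusion). All cells were first depleted of steroids by 48 hours of culture with 8% serum stripped on charcoal and then received vehicle or R1881, a synthetic androgen that is not readily metabolised, for 24 hours. LNCaP received vehicle, 0.03, 0.06, 0.1 or 10 nM (replicates 3, 4 and 5 in each group) and VCaP received vehicle, 0.01, 0.03, 0.06 or 10 nM (replicates 1, 2 and 4). Accessibility was measured by Omni-ATAC-seq, in which the transposase Tn5 inserts adapters into open DNA, giving 30 libraries in 10 groups of 3. Each line is a single model, and nothing in the labels says that replicates came from separate cultures, so p-values measure the spread between these libraries only.

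A region is a window of 501 bp. Each library's peaks were ordered by −log10 p, and the lists of a line were shortened to equal length, and a region took the percentile place (0 to 100) of the strongest peak touching it. A value of 0 means that no peak of the shortened list touched the region. Of the values at 0 among the member regions, 349 of 3902 in LNCaP and 208 of 4466 in VCaP had a weaker deposited peak beyond that length. Differences are in percentile points, with the standard error (SE) of the limma fit. Deposited LNCaP lists ran from 135254 to 223998 entries, and VCaP lists from 105034 to 170787. The depth recovered from the peak statistics, as the lowest background pileup, was 3.06 to 5.26 in LNCaP and 1.78 to 2.74 in VCaP, but 1.14 and 1.09 in VCaP vehicle replicates 1 and 2. The median fold enrichment of the listed peaks was lowest in LNCaP vehicle replicate 5, at 2.89. Of 9 luminal prostate genes, including KLK3 and HOXB13, 9 had a peak at most 1 kb from either end of the gene in every LNCaP library and 8 or 9 in the VCaP libraries. Of the 3 basal markers 0 to 1 had one in LNCaP and 0 to 2 in VCaP, and for the 3 stromal markers the range was the same. Of the 3 immune markers 1 to 3 had one in LNCaP and 0 to 2 in VCaP.

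PGC-1 proteins do not bind DNA themselves. They are recruited by transcription factors, among them the estrogen-related receptors encoded by ESRRA and ESRRG, and raise transcription of genes for mitochondrial biogenesis and fatty acid oxidation. TFAM packages and transcribes mitochondrial DNA, and PDK4 inhibits pyruvate dehydrogenase and so turns cells away from glucose oxidation. In prostate cancer cells androgen is known to act on energy metabolism partly through kinases that feed into PGC-1α.

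The 250 bases before 4 annotated starts are shown because accessibility differed there between starts or between lines (RefSeq, GRCh38.p14, 5′ to 3′ on the gene's strand). PPARGC1A had 2 starts in the promoter annotation used, here called distal and proximal, with different accessibility. The PDK4 start differed between the lines, and the ESRRA start ranked near the top of every VCaP list. Capitals mark matches, on either strand, to 5 motifs: AAGGTCA (half-site of estrogen-related receptors), AGAACA (half-site of steroid hormone receptors), TGCGCA (core of NRF1 sites), CCGGAAG (GABP) and CACGTG (E-box).
PPARGC1A distal start, chr4:24472906-24473155, minus strand: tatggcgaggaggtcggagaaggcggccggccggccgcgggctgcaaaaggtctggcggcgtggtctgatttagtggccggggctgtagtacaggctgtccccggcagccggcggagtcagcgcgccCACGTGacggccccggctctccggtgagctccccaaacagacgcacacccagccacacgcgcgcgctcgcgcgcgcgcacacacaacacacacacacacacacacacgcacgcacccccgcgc
PPARGC1A proximal start, chr4:23881102-23881351, minus strand: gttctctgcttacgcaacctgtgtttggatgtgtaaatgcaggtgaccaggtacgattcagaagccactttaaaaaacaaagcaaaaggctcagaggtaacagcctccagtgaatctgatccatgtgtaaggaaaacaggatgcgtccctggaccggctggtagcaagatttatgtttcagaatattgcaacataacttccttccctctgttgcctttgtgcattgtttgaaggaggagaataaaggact
PDK4 start, chr7:95596517-95596766, minus strand: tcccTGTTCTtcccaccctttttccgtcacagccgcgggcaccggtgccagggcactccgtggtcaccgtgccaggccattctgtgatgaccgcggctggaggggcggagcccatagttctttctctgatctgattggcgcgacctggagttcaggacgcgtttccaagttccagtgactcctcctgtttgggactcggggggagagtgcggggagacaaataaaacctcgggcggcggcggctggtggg
ESRRA start, chr11:64305274-64305523, plus strand: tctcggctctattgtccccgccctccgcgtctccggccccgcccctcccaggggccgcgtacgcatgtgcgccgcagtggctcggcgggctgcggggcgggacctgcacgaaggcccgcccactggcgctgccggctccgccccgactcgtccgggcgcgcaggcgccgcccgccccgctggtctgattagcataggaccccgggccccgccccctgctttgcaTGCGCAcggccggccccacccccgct

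The distal PPARGC1A sequence held an E-box that begins 123 bases before the start, a motif found in 6.34% of the 35116 RefSeq upstream sequences of this length. No match lay before the proximal start. The PDK4 sequence held a steroid receptor half-site 246 bases before the start (12.4% of all) and the ESRRA sequence an NRF1 core 26 bases before it (6.89% of all). The half-site of estrogen-related receptors, present in 3.44% of all, was matched before 1 of the 14 member starts, the ESRRG start at chr1:217076992. The GABP motif, present in 8.52% of all, was matched before none of the 14. GC content was 70.8% at the distal and 44.0% at the proximal PPARGC1A start, 62.8% at PDK4 and 78.0% at ESRRA, against a median of 58.0% over all upstream sequences.

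Start regions were read as the strongest summit within 1 kb in the shortened lists. The distal PPARGC1A start was listed in all 30 libraries, ranking between 95.6 and 98.6 in LNCaP and between 95 and 99.1 in VCaP. Its mean moved by 0.51 points (SE 0.63, limma adjusted p = 0.742) from vehicle to the low doses in LNCaP and by 1.07 points (SE 1.0, adjusted p = 0.769) in VCaP. The start called proximal, at chr4:23881101, was listed in 5 LNCaP libraries, with a highest rank of 32.4 at 10 nM, and in 0 VCaP libraries. The ESRRA start (88.7 to 99.7 in LNCaP, 99.9 to 100 in VCaP) and the TFAM start (96.9 to 98.9 and 94.8 to 99.4) were also listed in all 30. At PPARGC1B the 5′ end of the gene body was listed in all 30 libraries (72.9 to 90.4 in LNCaP, 49.6 to 81.2 in VCaP), while a downstream start at chr5:149771940 was listed in 15 LNCaP libraries (48.1 to 73.9) and 7 VCaP libraries (at most 44.5). Of 8 ESRRG starts, 3 within 1 kb of each other shared a summit that was listed in all 30 libraries, a further start at chr1:217078287 was listed in all 30, and the other 4 were listed in 0 to 4 libraries per line. In the full deposited lists the proximal PPARGC1A start had a summit in 6 LNCaP and 0 VCaP libraries, the downstream PPARGC1B start in 10 VCaP libraries, and those 4 ESRRG starts in 0 to 9 libraries per line.

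The PDK4 start stood apart. In LNCaP it was listed in 2 of 15 libraries, at ranks of 12.7 and 16.5, both at 10 nM, and 4 of the full LNCaP lists had a summit there. In VCaP it was listed in all 15, with 81.7, 4.24 and 54.0 in vehicle and 49.8, 64.1 and 56.3 at 10 nM. Every VCaP vehicle library was thus above every LNCaP vehicle library, and the difference of −46.6 points for LNCaP minus VCaP (SE 12.0) passed the test (adjusted p = 0.00439). Within VCaP the low doses and vehicle did not differ beyond their spread (4.55 points, SE 13.4, adjusted p = 0.931). A window 0.8 kb upstream of this start was 45.4 points higher at 10 nM than at the low doses in VCaP, without a test, because it had enough peaks for testing only through its 10 nM libraries.

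**Figure D1:**
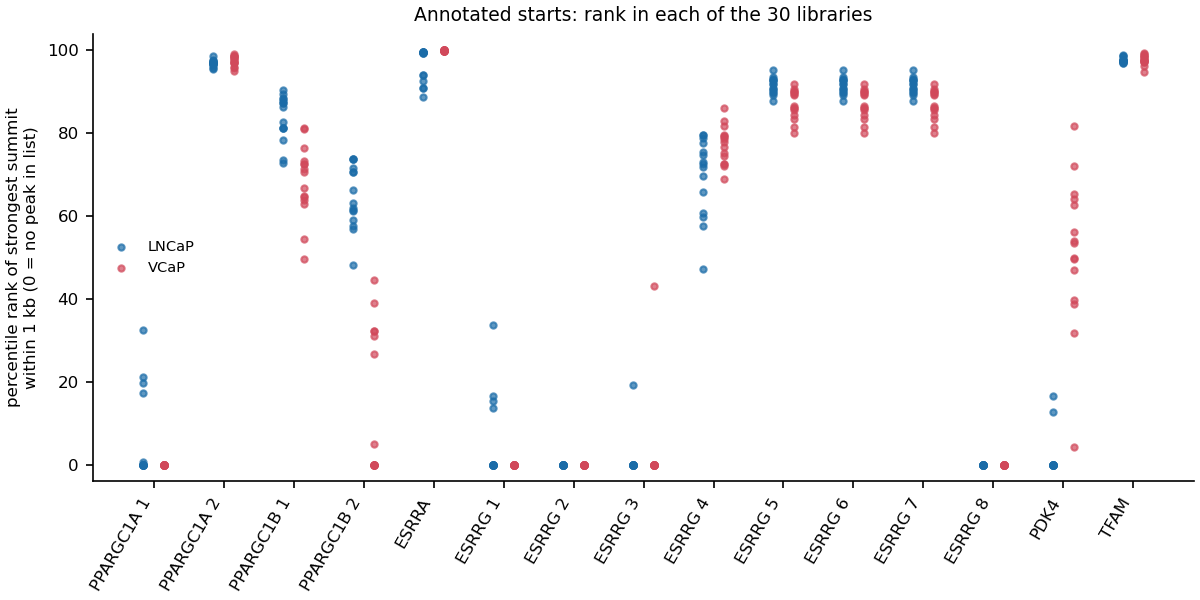
Percentile rank (vertical axis, 0 to 100, 0 = no peak in the shortened list) of the strongest summit within 1 kb of each annotated start, 1 point per library, LNCaP in blue and VCaP in red; starts of a gene are numbered by rising genome position, so PPARGC1A 2 is the distal start. The distal PPARGC1A, ESRRA and TFAM starts sit near the top in both lines, and the PDK4 start is listed in 15 VCaP but 2 LNCaP libraries.

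Of the 437 regions, 341 had a peak in some LNCaP library and 227 in at least 3, the minimum for testing. In VCaP the numbers were 299 and 186, and 147 regions were tested in both lines. A peak was present in all 15 libraries of the line at 88 regions in LNCaP and 62 in VCaP. The filter was passed through the 10 nM libraries alone by 5 regions in LNCaP and 3 in VCaP, and a further group passed only with their help: in all, 20 tested regions in LNCaP and 21 in VCaP had fewer than 3 libraries with a peak below 10 nM. The filter favours a rise at 10 nM in such regions, and those named below are given without a test. Against the low doses, 10 of the 20 in LNCaP and 9 of the 21 in VCaP were called higher. There were 205 regions inside the gene bodies, and for 252 the nearest gene was the member itself. ESRRA lies among many genes, and it was the nearest gene for 2 of its 71 regions. Peaks often span neighbouring windows, and 42 regions (21 of them at ESRRA) carried the same peak as the window beside them.

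Low doses opened more of these regions than they closed in LNCaP. The 0.03, 0.06 and 0.1 nM libraries together differed from vehicle at 29 of 227 regions, 26 higher and 3 lower (12.8%, against 7.27% of all tested regions, of which 5.75% were higher and 1.52% lower). By gene, 7 of 24 tested regions were higher at PDK4, 6 of 55 at PPARGC1A, 6 of 49 at PPARGC1B, 5 of 36 at ESRRG, 2 of 21 at TFAM and 0 of 42 at ESRRA. The 3 lower regions were 2 at PPARGC1B and 1 at ESRRG. The median difference over the 227 regions was 0.76 points, against 0.29 over all regions tested. Taken singly against vehicle, 0.03 nM changed 10 regions (9 higher, background 2.28% called either way), 0.06 nM 24 (23 higher, background 5.28%) and 0.1 nM 34 (30 higher, background 9.05%). Between 0.1 and 0.03 nM, 5 regions differed, all higher at 0.1 nM (2.2%, background 1.65%).

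From the low doses to 10 nM, 44 of the 227 LNCaP regions changed, 30 higher and 14 lower (19.4%, against 14.7% of all tested regions, 8.86% higher and 5.8% lower). PPARGC1A had 12 higher and 6 lower of 55, ESRRG 7 and 2 of 36, PPARGC1B 5 and 2 of 49, PDK4 4 and 1 of 24, TFAM 1 and 0 of 21 and ESRRA 1 and 3 of 42. The share of higher calls depended on the scaling: it was 68.2% of the called regions here and 92.5% with the lists at their full deposited length. The median difference was −0.60 points, against −0.95 over all regions tested. Of the 30 higher regions, 10 had been testable only with their 10 nM libraries, and with peaks required in at least 8 libraries 16 were higher and 13 lower of 170. These contrasts share their 10 nM libraries with the contrast behind the choice of genes, as the low-dose contrasts share its vehicle libraries, so neither is independent of that choice. The step from 0.03 to 0.1 nM compares none of those libraries, but the spread in its fit is pooled over all groups of the line.

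In VCaP the low doses changed 0 of 186 regions (background 0.647%), 17 having an unadjusted p under 0.05. Taken singly, 0.06 nM changed 3 regions, all higher (background 1.02%), and 0.01 and 0.03 nM changed 0 (background 0.0309% and 0.24%, with 7 and 17 unadjusted p under 0.05). Between 0.06 and 0.01 nM 0 regions differed (background 0%, 16 with an unadjusted p under 0.05). From the low doses to 10 nM, 16 regions changed, 13 higher and 3 lower (8.6%, against 5.12% of all tested regions, 3.97% higher and 1.15% lower). They were 4 higher and 2 lower at PPARGC1A, 5 higher at PPARGC1B, 3 higher at PDK4, 1 higher at ESRRG and 1 lower at ESRRA. The summit pileup is not a rank and was centred on each library's median. It was fitted only on regions with a usable value in every VCaP library, and gave 1 higher and 3 lower. Regions at 0 in any library were left out of it. Of the 13 higher regions, 9 had been testable only with their 10 nM libraries, and with peaks required in at least 8 libraries 1 was higher and 1 lower of 127.

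Between 10 nM and vehicle, the contrast behind the choice of genes, 55 LNCaP regions were higher and 19 lower (background 25.3%), and 19 VCaP regions were higher and 4 lower (background 8.74%). With the summit pileup, which covers only regions with a usable value in every VCaP library, the split in VCaP was 3 higher and 8 lower.

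PPARGC1A encodes PGC-1α, and its locus had the largest rise of the LNCaP line among the 437 regions. The region 23.9 kb upstream of the distal start (chr4:24496586-24497086) was at 0 in every LNCaP vehicle library. At 0.03 nM the 3 libraries had ranks of 42.9, 34.2 and 23.1, at 0.06 nM 74.9, 72.6 and 70.8, at 0.1 nM 83.2, 82.4 and 84.3, and at 10 nM 89.5, 92.6 and 91.8. No library of one dose overlapped those of another, so the rank climbed with each step of dose. The low doses lay 63.2 points above vehicle, and the 10 nM mean lay a further 28.2 points above the low doses. Both are given without a test, because the region was named for the largest rise from vehicle to 10 nM. The rise from 0.03 to 0.1 nM, which compares neither of those groups, was 49.9 points (SE 5.58, adjusted p = 0.000568). Its SE pools the spread of all LNCaP groups, vehicle and 10 nM included, so the p is not independent of them. The region was also named for having the smallest p of that step at PPARGC1A. In the authors' own units the fold enrichment over local background was 2.48 to 4.26 at 0.03 nM and 15.9 to 16.9 at 10 nM.

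VCaP showed another order at that region. Vehicle and 0.03 nM were at 0 (1 library at 0.03 nM had a weaker deposited peak), 1 of 3 libraries at 0.01 nM had a rank of 5.54, and 0.06 nM had 65.1, 30.2 and 58.0. At 10 nM the ranks were 0, 21.1 and 35.8. The 0.06 nM libraries were above vehicle by 51.1 points (SE 11.7, adjusted p = 0.0448), and the value at 10 nM was below that at 0.06 nM in mean, with overlapping libraries. Over the same step, from 0.06 to 10 nM, the LNCaP mean rose from 72.8 to 91.3 and the VCaP mean went from 51.1 to 19.0. The change at the matched doses of 0.03 and 0.06 nM did not differ between the lines beyond the spread (14.1 points, SE 10.0, adjusted p = 0.655). At 10 nM the change was 69.8 points larger in LNCaP, given as a description.

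The largest fall of the VCaP line at PPARGC1A lay elsewhere, 516.1 kb downstream of the distal start in the gene body (chr4:23956530-23957030), and 75.7 kb upstream of the proximal start. VCaP ranks were 81.1, 89.6 and 63.9 in vehicle, 48.6, 61.6 and 69.4 at 0.01 nM, 50.9, 40.8 and 53.8 at 0.03 nM, 49.5, 47.3 and 41.2 at 0.06 nM, and 0 in all 3 libraries at 10 nM. LNCaP fell at the same region, from 67.5, 77.5 and 64.2 in vehicle over 25.3, 38.7 and 10.8 at 0.1 nM to 0 in all 3 libraries at 10 nM. The region was chosen for this fall, so its drop from the low doses to 10 nM, −42.9 points in LNCaP and −51.5 points in VCaP, is given without a test. The difference between vehicle and 10 nM in VCaP was −63.9 points without the thin vehicle replicates 1 and 2 and −78.2 with them.

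The group had been described by opposite changes of the lines at PPARGC1A. Of 26 PPARGC1A regions tested in both lines, the mean at 10 nM lay above vehicle in both at 14 and below it in both at 7, and at 4 it lay above vehicle in LNCaP and below it in VCaP. At 1 region the order was the reverse. The widest of these opposite pairs was the region 462.1 kb downstream of the distal start, in the gene body (chr4:24010527-24011027). LNCaP had 37.6, 0 and 0 there in vehicle, between 38.0 and 65.6 at the low doses and 61.4, 53.8 and 58.6 at 10 nM. VCaP had 52.3, 64.3 and 59.8 in vehicle, between 0 and 67.1 at the low doses and 16.3, 51.4 and 0 at 10 nM. The 10 nM and vehicle libraries did not overlap in either line, with differences of 45.4 points in LNCaP and −36.2 points in VCaP. At the low doses LNCaP lay 43.1 points above vehicle. That is given without a test, because the vehicle libraries had a part in the choice of this region. The VCaP difference of −27.5 points missed the threshold (SE 14.01, adjusted p = 0.535). So did the difference between the lines at 0.03 and 0.06 nM (58.5 points, SE 15.5, adjusted p = 0.0520). At the other 4 the groups overlapped in VCaP. The largest rise in LNCaP and the largest fall in VCaP lay elsewhere, and at either of those the mean at 10 nM was on the same side of vehicle in both lines. The region at 462.1 kb was singled out after its values were seen.

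**Figure D2:**
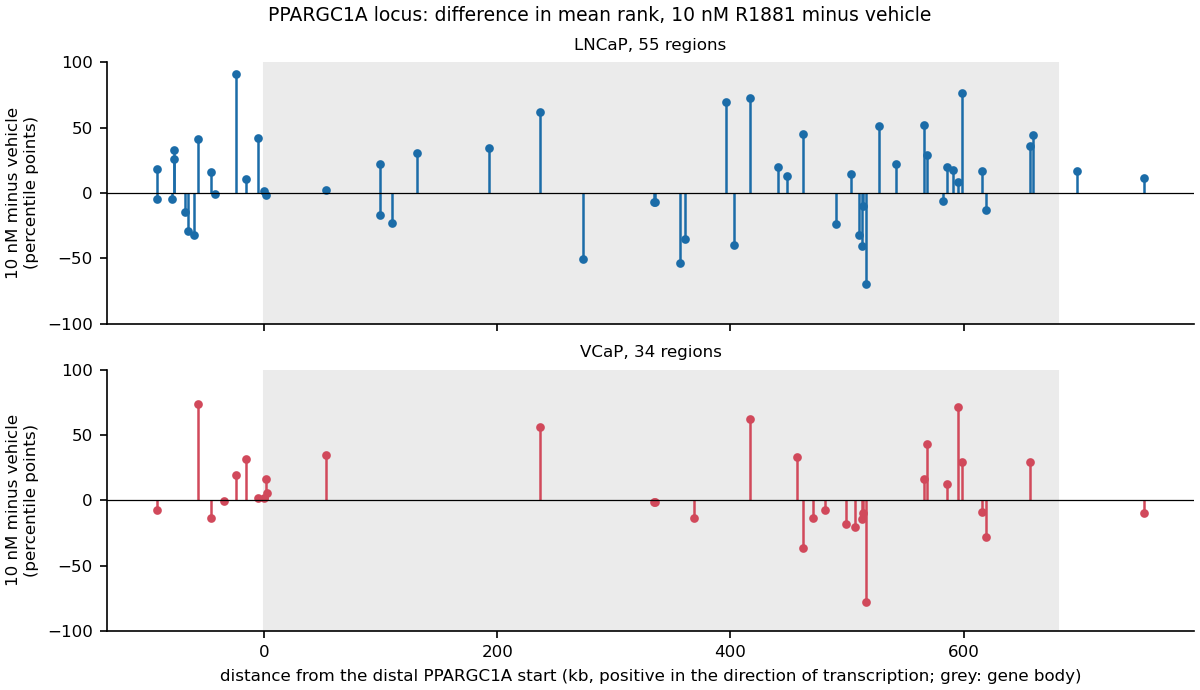
Difference in mean percentile rank, 10 nM minus vehicle (vertical axis, percentile points), of every tested PPARGC1A region against its distance from the distal start (horizontal axis, kb; grey marks the gene body), for LNCaP (55 regions) and VCaP (34 regions). The tallest LNCaP line stands 23.9 kb upstream of the start, and the deepest line in both panels is at 516.1 kb.

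Some PPARGC1A regions opened at the high dose in both lines. The region 417.0 kb downstream was at 0 in 11 of 12 LNCaP libraries below 10 nM and had ranks of 71.2, 69.7 and 77.5 at 10 nM, 72.5 points above the low doses, and was testable only through those 3. In VCaP it had ranks of 58.1, 56.8 and 61.8 already at 0.06 nM and 73.5, 75.3 and 79.0 at 10 nM, 56.3 points above the low doses (SE 10.7, adjusted p = 0.00335). The region 56.8 kb upstream, nearest to DHX15, was at 0 below 10 nM in LNCaP and had 59, 23 and 42.3 at 10 nM, a mean of 41.5. Its VCaP ranks at 10 nM were 77.5, 73.0 and 69.6 (64.4 points above the low doses), and in both lines the region was testable only through the 10 nM libraries. A region 60.6 kb upstream, also nearest to DHX15, was open in LNCaP alone. Its LNCaP vehicle ranks were 71.0, 64.0 and 66.4, against 0 in all 15 VCaP libraries. LNCaP lost rank there at 10 nM, to 40.4, 25.7 and 38.8, a change of −23.3 points from the low doses (SE 5.56, adjusted p = 0.00971).

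Further regions of the PPARGC1A gene body opened at low doses in LNCaP. Those 236.2, 396.1, 462.1, 568.6 and 598.5 kb downstream of the distal start were 23 to 46.0 points above vehicle at the low doses. Apart from the region at 462.1 kb, given above without a test, their adjusted p lay between 0.000417 and 0.0302. The regions at 396.1 and 598.5 kb were also 27.9 and 41.6 points higher at 10 nM than at the low doses (adjusted p = 0.0326 and 0.000255). In VCaP the region at 236.2 kb was 50.6 points higher at 10 nM than at the low doses, where it had enough peaks for testing only through 10 nM. Other regions fell: in LNCaP 10 nM lay below the low doses at 273.7, 356.7 and 490.2 kb, by −30.3, −35.1 and −33.7 points (adjusted p = 0.0118, 0.0163 and 0.0209). The numbers of rises and falls in this step are not set against each other here, because several of the rises depended on the filter. Those 131.4, 417.0 and 565.8 kb downstream and 56.8 and 77.3 kb upstream were testable in LNCaP only with their 10 nM libraries.

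**Figure D3:**
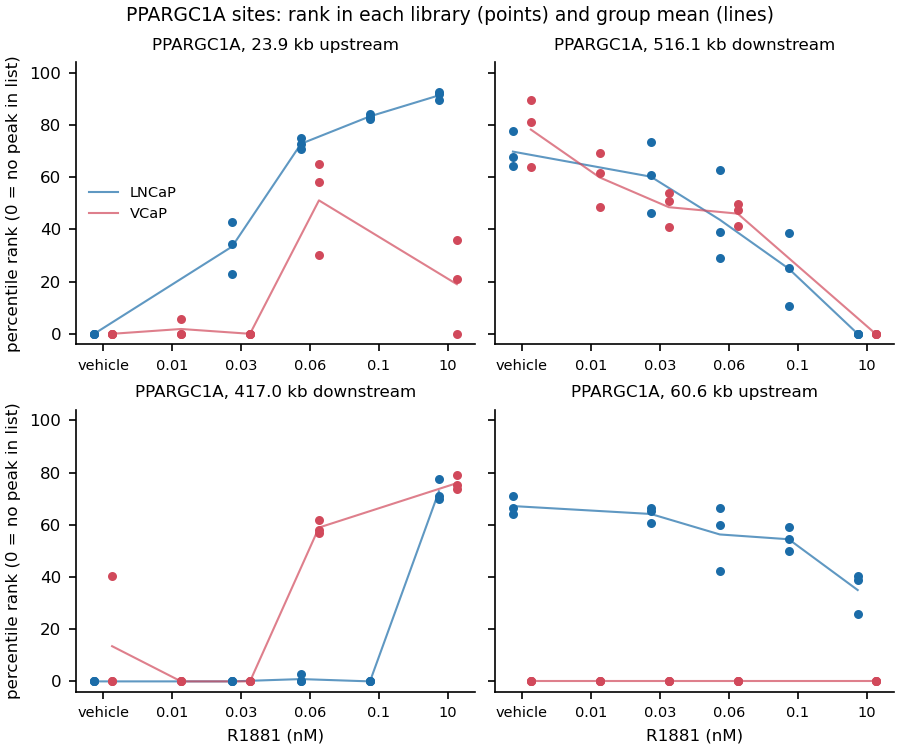
Percentile rank (vertical axis, 0 = no peak in the shortened list) by R1881 dose (horizontal axis, nM, evenly spaced) at 4 PPARGC1A regions, with points for libraries and lines through group means, LNCaP in blue and VCaP in red. The upstream region climbs to 91.3 in LNCaP at 10 nM and 19.0 in VCaP, and the region at 516.1 kb reaches 0 in both lines.

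PPARGC1B, which encodes the related coactivator PGC-1β, had regions that responded in both lines. The region 61.4 kb downstream of its start, inside the gene (chr5:149791485-149791985), was at 0 in vehicle in all libraries of both lines. LNCaP had 0 at 0.03 nM, then 43.4, 41.5 and 27.1 at 0.06 nM, 56.5, 65.0 and 51.9 at 0.1 nM, and 85.9, 88.1 and 90.5 at 10 nM. VCaP had 37.2, 0 and 48.2 at 0.03 nM, 75.1, 58.1 and 71.7 at 0.06 nM, and 88.2, 87.1 and 90.6 at 10 nM. The dose order was thus the same in both lines, and 10 nM exceeded the low doses by 56.5 points in LNCaP and 56.4 points in VCaP. These are given without a test, because in both lines this was the largest rise at 10 nM among the named PPARGC1B regions. At 0.03 and 0.06 nM the change was 38.7 points smaller in LNCaP, which missed the threshold (SE 10.4, adjusted p = 0.0549). The step from 0.03 to 0.1 nM in LNCaP (57.8 points, SE 7.68, adjusted p = 0.0019) was no longer called when only those groups were fitted.

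Nearer to the gene, the region 10.4 kb upstream was open in LNCaP vehicle, at 53.2, 56.7 and 46.3, and had 77.8, 85.3 and 88.4 at 0.03 nM. The low doses were 35.3 points above vehicle (SE 2.6, adjusted p = 4.5e-07), and 10 nM had 88.1, 96.2 and 94.3. Of these, 2 lay above every low-dose library (at most 92.2), but the difference of 5.46 points missed the threshold (SE 2.6, adjusted p = 0.206). In VCaP vehicle replicates had 40.1, 0 and 49.6, and the low doses were 36.1 points higher with a large error (SE 13.0, adjusted p = 0.297). The region 99.5 kb upstream, nearest to ARHGEF37, was at 0 in vehicle in both lines, with a weaker deposited peak in VCaP vehicle replicate 4. At 10 nM it had 66.3, 63.5 and 71.7 in LNCaP and 44.2, 75.9 and 66.1 in VCaP (57.9 and 59.7 points above the low doses). The adjusted p in LNCaP was 0.000131, and in VCaP the region was testable only through 10 nM. Inside the gene, the regions 107.6 and 127.4 kb downstream rose at the low doses in LNCaP by 75.7 and 24.3 points (adjusted p = 0.00305 and 0.000305), and that 29.8 kb downstream rose in VCaP at 0.06 nM by 72.8 points (adjusted p = 0.0275). The region 12.3 kb downstream was open in LNCaP vehicle (78.8, 81.2 and 53.3) and at 0 in 14 of 15 VCaP libraries, 1 of which had a weaker deposited peak.

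Among the partner receptors, ESRRG had regions that rose, regions that fell and one that was high only at the doses in between. ESRRG encodes ERRγ, a constitutively active receptor of oxidative tissue. The region 234.8 kb downstream of its farthest start was high in both lines and rose further in LNCaP, from 89.0, 82.6 and 91.4 in vehicle to between 95.6 and 99.8 at the low doses (10.2 points, SE 1.37, adjusted p = 0.000193). The region 393.4 kb downstream closed in LNCaP, from 63.8, 50.7 and 62.0 in vehicle to 0 in all 3 libraries at 10 nM (1 with a weaker deposited peak). Its low doses were 41.5 points below vehicle (difference −41.5). That is given without a test, because the region was named for the smallest p between the lines in vehicle at ESRRG. The same LNCaP vehicle libraries enter both comparisons. No VCaP list had a peak there, even at full length.

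The region 370.6 kb downstream, singled out after its values were seen, was high at low doses only. Its LNCaP ranks were 20.5, 0 and 0 in vehicle, 45.3, 41.4 and 51.3 at 0.03 nM, 53.4, 52.9 and 37.4 at 0.06 nM, 41.3, 46.3 and 56.6 at 0.1 nM, and 10.3, 29.1 and 15.3 at 10 nM. All 9 low-dose libraries were above all vehicle and all 10 nM libraries. The low doses exceeded vehicle by 40.5 points (SE 7.62, adjusted p = 0.00335), and 10 nM differed from them by −29.1 points (SE 7.62, adjusted p = 0.0171). No VCaP list had a peak there, even at full length.

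In VCaP the ESRRG region 176.7 kb downstream rose from 0 in vehicle to 36.4, 5.53 and 24.3 at 0.06 nM. At 10 nM it had 76.8, 67.7 and 62.2, 61.3 points above the low doses. That is given without a test, because the region was named for the largest VCaP difference between 10 nM and vehicle at ESRRG. LNCaP had 6.66, 0 and 33.3 there at 10 nM. The region 91.2 kb upstream of the farthest start was 48.2 points higher at 0.1 than at 0.03 nM in LNCaP (SE 9.21, adjusted p = 0.0173), a call that was lost without 0.1 nM replicate 3 or 4 (highest adjusted p = 0.0777 over the libraries left out).

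ESRRA encodes ERRα, the most widely expressed of these receptors, and no region around it was called at the low doses. They changed 0 of 42 regions in LNCaP, with 4 at an unadjusted p under 0.05, and 0 of 55 in VCaP, with 2. The region 86.5 kb upstream, nearest to FERMT3, fell in LNCaP from 48.1, 51.4 and 58.2 in vehicle to 7.46, 3.83 and 0 at 10 nM (−26.6 points from the low doses, SE 8.08, adjusted p = 0.0381). In VCaP it went from 95.1, 89.3 and 89.1 to 79.7, 70.8 and 66.3 (−13.6 points from the low doses, SE 3.73, adjusted p = 0.041), and that call was lost on leaving out any of 8 single libraries, with adjusted p up to 0.26. The region 83.6 kb downstream, nearest to RPS6KA4, was open in VCaP vehicle (97.6, 82.3 and 90.9) and at 0 in LNCaP vehicle. It rose to 36.8, 36.9 and 16.3 in LNCaP at 10 nM (25.4 points above the low doses, SE 6.06, adjusted p = 0.00979), not called without 10 nM replicate 4 (adjusted p = 0.0567).

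PDK4 encodes the kinase that shuts off pyruvate dehydrogenase, and regions on both sides of it rose at low doses in LNCaP. The region 9.4 kb downstream of the start, inside the gene, had LNCaP ranks of 19.4, 20.6 and 0 in vehicle, 71.8, 42.2 and 44.8 at 0.03 nM, 69.2, 67.2 and 65.0 at 0.06 nM, 76.0, 77.9 and 75.6 at 0.1 nM, and 81.6, 84.9 and 79.3 at 10 nM. Every treated library was above every vehicle library, and the low doses exceeded vehicle by 52.2 points (SE 6.17, adjusted p = 5.7e-05). VCaP was already at 67.6, 76.3 and 54.0 in vehicle, with 79.6, 86.2 and 84.6 at 10 nM. The region 34.7 kb upstream rose from 72.7, 68.6 and 71.6 in LNCaP vehicle by 15.7 points at the low doses (SE 1.65, adjusted p = 1.8e-05). It lay 5.16 points lower again at 10 nM (difference −5.16, SE 1.65, adjusted p = 0.0494, close to the threshold). This order of a rise and a fall was singled out after the values were seen.

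At 32.4 kb upstream of PDK4 the region was at 0 in every LNCaP library below 10 nM and had 70.4, 74.8 and 73.3 at 10 nM, through which alone it was testable. In VCaP 1 library each at 0.01 and 0.03 nM had 11.3 and 14.5, 0.06 nM had 47.1, 0 and 52.0, and 10 nM had 75.9, 65.5 and 62.9 (54.2 points above the low doses, SE 11.2, adjusted p = 0.00629). The window 27.1 kb upstream had 86.1, 83.4 and 77.2 in VCaP at 10 nM, through which alone it was testable, and 0 in all other VCaP libraries. The window beside it, 26.6 kb upstream, carried the same peak and already had 45.9, 0 and 0 in VCaP vehicle and 67.7, 64.0 and 65.2 at 0.06 nM. In LNCaP vehicle the first window was at 0 in all 3 libraries, while the window beside it had 79.2, 77.7 and 0. The change in the first window therefore includes a widening of the listed peak in both lines.

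PDK4 also held a region, singled out after its values were seen, where the mean rose in LNCaP and fell in VCaP. The region 63.6 kb upstream (chr7:95659860-95660360) rose in LNCaP from 27.6, 28.7 and 48.4 in vehicle to 57.9, 44.7 and 50.8 at 0.03 nM, 69.6, 74.3 and 59.8 at 0.06 nM, and 73.1, 70.3 and 69.2 at 10 nM. In VCaP it went from 68.6, 66.5 and 50.8 in vehicle to 32.5, 21.0 and 42.4 at 0.03 nM, 43.8, 32.6 and 44.3 at 0.06 nM, and 15.8, 12.5 and 29.6 at 10 nM. The low doses were 28.7 points above vehicle in LNCaP (SE 5.23, adjusted p = 0.00259), while the VCaP difference of −25.1 points did not pass its own test (SE 10.8, adjusted p = 0.422). The difference between the lines at 0.03 and 0.06 nM, for which the region was singled out, was 57.5 points (SE 10.6, adjusted p = 0.00283). It missed the threshold with normal scores, the summit pileup or the −log10 q limit.

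TFAM, the packaging and transcription factor of mitochondrial DNA, had 2 regions that rose at low doses in LNCaP, both nearest to UBE2D1, 36.6 and 31.9 kb upstream. The first had ranks of 33.9, 14.8 and 26.9 in vehicle, 51.6, 54.8 and 57.8 at 0.03 nM, 53.7, 62.8 and 61.4 at 0.06 nM, 64.2, 65.8 and 71.9 at 0.1 nM, and 53.2, 54.9 and 65.2 at 10 nM. All treated libraries were above all vehicle libraries, the low doses by 35.2 points (SE 5.34, adjusted p = 0.000572). All VCaP libraries were at 0, 1 of them with a weaker deposited peak. The second was 41.7 points above vehicle at the low doses (adjusted p = 0.00161). The region 22.1 kb upstream was at 0 in LNCaP vehicle and 0.03 nM and had 67.4, 52.5 and 68.3 at 10 nM. Its 10 nM mean lay 37.1 points above the low doses. That is given without a test, because this was the largest LNCaP rise at 10 nM among the named TFAM regions.

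**Figure D4:**
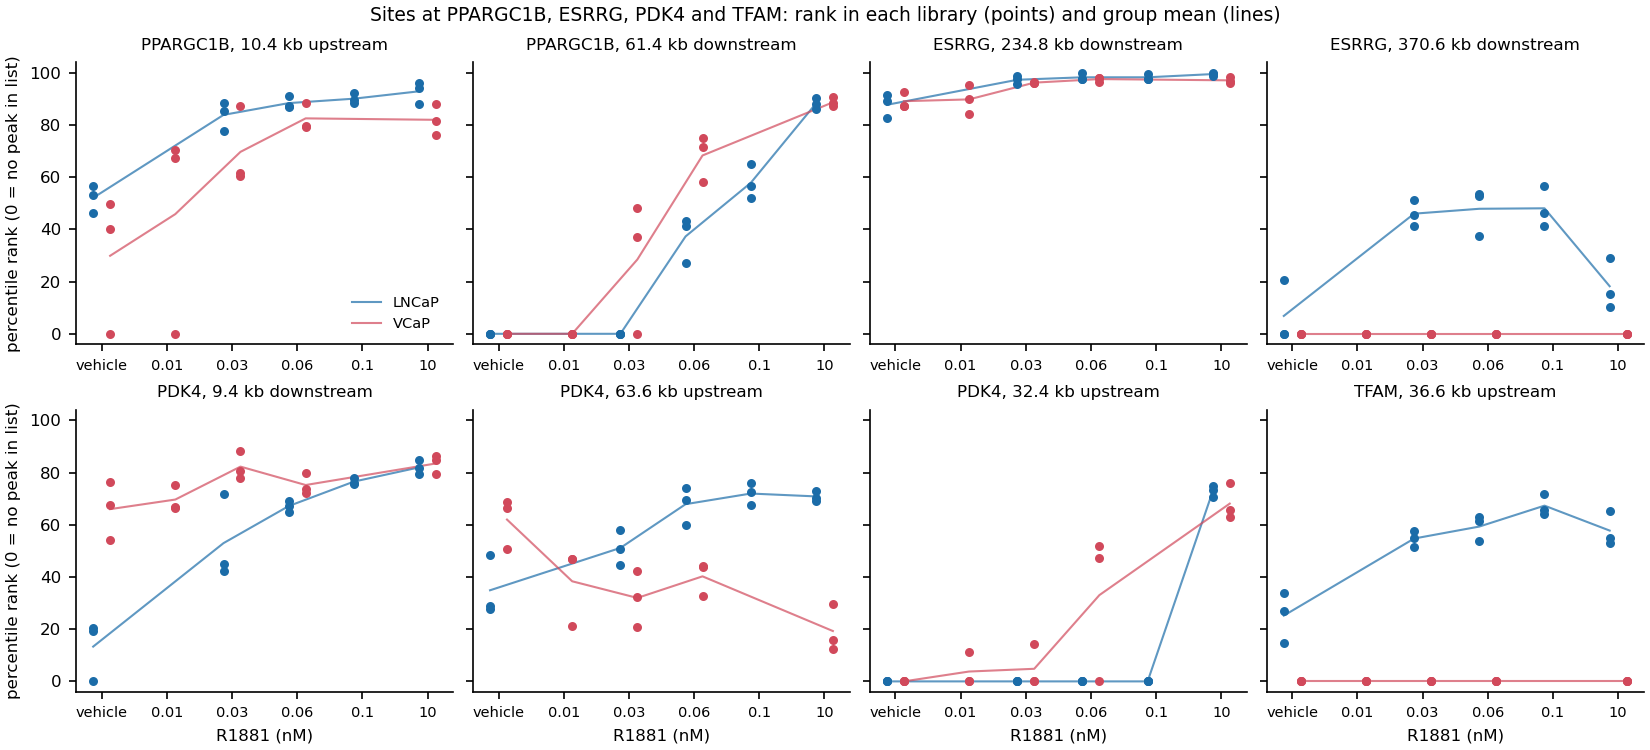
Percentile rank (vertical axis, 0 = no peak in the shortened list) by R1881 dose (horizontal axis, nM, evenly spaced) at 8 regions of PPARGC1B, ESRRG, PDK4 and TFAM, with points for libraries and lines through group means, LNCaP in blue and VCaP in red. PPARGC1B at 61.4 kb climbs to 88.2 and 88.6 in the 2 lines, ESRRG at 370.6 kb is high between vehicle and 10 nM, and PDK4 at 63.6 kb rises in LNCaP and falls in mean in VCaP.

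For comparisons between the lines all 30 lists were shortened to the same 104726 entries, so LNCaP ranks differ somewhat from those above. Without androgen, LNCaP and VCaP differed at 82 of 246 member regions, 36 higher in LNCaP and 46 higher in VCaP (33.3%, against 28.2% of all tested regions, 16.4% higher and 11.8% lower in LNCaP). ESRRA accounted for 25 of the 46, out of 56 tested, with 1 higher in LNCaP, while PPARGC1A had 16 higher in LNCaP and 3 higher in VCaP of 60. The split of all called regions was 43.9% higher in LNCaP here, 56.7% when ranked by fold enrichment and 5.9% with the summit pileup. The pileup was centred on each library's median and covers only regions with a usable value in all 30 libraries. A line-specific region upstream of TFAM, 84.5 kb from its start and nearest to CISD1, had LNCaP vehicle ranks of 75.2, 74.7 and 80.4 and 0 in all VCaP libraries, 2 of them with a weaker deposited peak (70.1 points on the shared scale, SE 5.80, adjusted p = 7.5e-10).

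The change at the matched doses of 0.03 and 0.06 nM differed between the lines at 9 of 246 regions, 6 higher and 3 lower in LNCaP (3.66%, against 1.82% of all tested regions, 1.16% higher and 0.664% lower). PDK4 had 4 of them among 26 tested and PPARGC1A 0 of 60, with 10 at an unadjusted p under 0.05. Between 10 nM and vehicle, as a description, the means of the 147 regions tested in both lines lay higher in both at 63, lower in both at 41 and in opposite directions at 41, and 2 had a mean difference of 0 in a line.

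**Figure D5:**
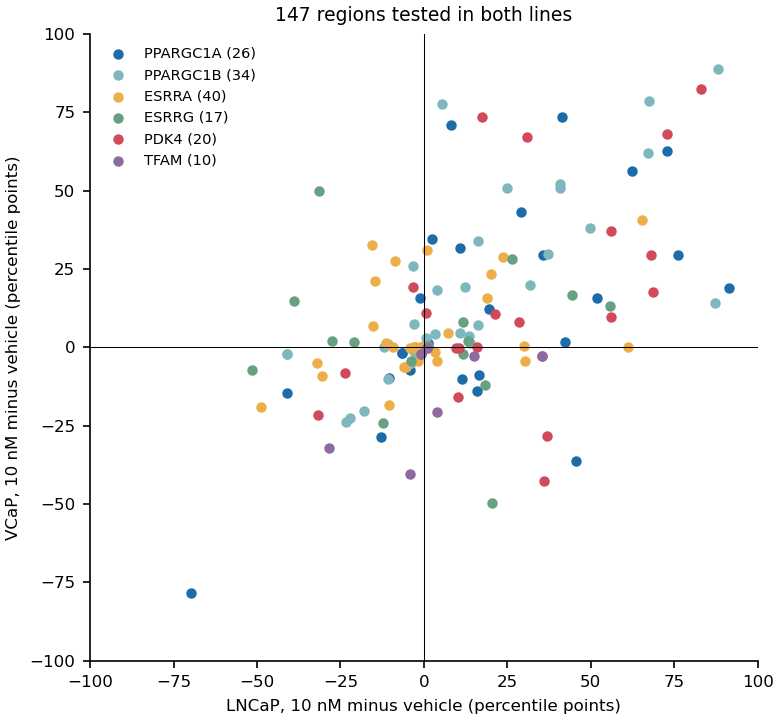
Difference in mean percentile rank, 10 nM minus vehicle, in LNCaP (horizontal axis, percentile points) and VCaP (vertical axis, percentile points) for the 147 regions tested in both lines, coloured by gene with the number of regions in brackets. PPARGC1B 61.4 kb downstream lies at the upper right and PPARGC1A 516.1 kb downstream at the lower left.

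Other genes of the pathway were counted by whether a called region had them as its nearest protein-coding gene. At low doses in LNCaP, a higher region was found at 4 of 16 coactivators and regulators (CAMKK2, NCOA1, NCOA3 and NCOR1), at 5 of 14 DNA-binding partners (RXRA, FOXO1, MEF2C, MEF2D and THRB) and at 4 of 29 tested nuclear targets (ACADM, TFB2M, SOD2 and VEGFA). Over all 17750 genes tested the share was 28%. Lower regions were found at 3, 0 and 2 genes of the lists, against 10.4% of all genes. From low doses to 10 nM in LNCaP, 5, 11 and 11 genes had a higher region (38.9% of all genes) and 5, 5 and 3 a lower one (27.9%). Genes differ in how many regions they hold, and the partners had a median of 18 tested regions in LNCaP against 6 over all genes. Counted by region, 6.17% of the regions at coactivators and regulators, 7% at the partners and 7.77% at the targets were higher, below the 8.86% over all tested regions. The 11 partners included PPARA, PPARD, PPARG, HNF4A and NRF1, DNA-binding factors through which PGC-1 reaches fatty acid and respiratory chain genes. In VCaP the same step gave 3, 2 and 4 genes with a higher region (18.2% of all genes) and 2, 0 and 1 with a lower one (5.91%), and the low doses gave 0 genes with a higher region (2.88% of all genes) and 1 with a lower one, NRF1 (0.916%). Genes with a higher region at 10 nM against the low doses in both lines included NCOA1 and NRIP1 (coactivators and regulators) and MEF2C and THRB (partners). Among the targets they were ACADM (medium-chain acyl-CoA dehydrogenase), TFB1M (a methyltransferase of mitochondrial ribosomal RNA) and SOD2 (the mitochondrial superoxide dismutase). In this step NCOA1, NRIP1, NRF1 and THRB also had a lower region in LNCaP, and NRIP1 also in VCaP. The share of all genes with a higher region in both lines was not counted, so nothing is read from this overlap.

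Values on either side of the 100 kb limit are given as a description. The tested PPARGC1B region 99.5 kb outside the gene body had a mean of 67.2 at 10 nM in LNCaP, and the next one beyond the limit, at 102.8 kb, had 99.9. At PDK4 the region just inside, at 97.6 kb, had 0 in the vehicle and 10 nM groups of both lines, and that just outside, at 102.4 kb, had means of 79.5 in LNCaP vehicle and 0.17 at 10 nM.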

How the data were processed

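The submitters' processing notes list MACS2 2.2.7.1, the read tools BWA 0.7.17 and Trimmomatic 0.39, deepTools 3.5.1 and the build GRCh38, and the authors deposited 1 peak list per library. The authors' lists give a score, a ratio (fold enrichment over local background), −log10 p and −log10 q per summit, and the summit's offset in bp. All 30 lists were used, on chromosomes 1 to 22 and X. Lists were shortened by −log10 p to the shortest of the line (134750 entries in LNCaP, 104726 in VCaP). Windows of 501 bp were placed on their summits, strongest first and without overlap, and scored by the best peak overlapping by at least 1 bp. A rank is a place within a library, not a signal. Depth was solved from the deposited fold enrichment and −log10 p (all solved pileups whole within 0.05).

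Group means were fitted with limma 3.58.1 (R 4.3.3, trend and robust) on regions with a peak in at least 3 libraries of a line (188393 in LNCaP, 142294 in VCaP, 192106 in the joint fit), with Benjamini-Hochberg adjustment over all of them and a threshold of 0.05, tested on simulated data. Regions were named by rule: per gene, the one nearest a start, the smallest p per contrast, the largest change at 10 nM and the smallest p between the lines. The p-values printed for regions named by p or by change are not independent of that choice. Other called regions are named with their values seen. Members, lists and rules were chosen with earlier results of these data known. Alternatives changed list length, ranking, overlap, filters, libraries and scale. Sequences of distal regions were not analysed here, and 1 named region is not reported here.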

Additional observations from a re-analysis of the deposited data

Results flagged for a closer look

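The change from vehicle to 0.03 and 0.06 nM differed between the lines (test of the difference, LNCaP minus VCaP, all lists of equal length) at 9 member regions, singled out after their values were seen. At PDK4 the difference was 57.5 points 63.6 kb upstream, 59.3 points 27.1 kb upstream, 35.8 points 9.4 kb downstream and 8.8 points 46.2 kb downstream. The window 27.1 kb upstream shares its peak with the one 26.6 kb upstream, where LNCaP vehicle already had 79.2, 77.7 and 0, and with a summit required inside the window its difference was 0. At PDK4 63.6 kb upstream the mean went from 34.9 to 59.5 in LNCaP and from 62.0 to 36.1 in VCaP. At 9.4 kb it went from 13.3 to 60 in LNCaP and from 66 to 78.7 in VCaP. At ESRRG the difference was −41 points 393.4 kb downstream and 31.7 points 370.6 kb downstream, at TFAM 37.7 points 36.6 kb upstream, and at PPARGC1B −18.7 points 199.9 kb downstream. VCaP had no peak in vehicle, 0.03 or 0.06 nM at these 4 regions, so the difference there is the change in LNCaP. At ESRRA 14.1 kb upstream it was −63.2 points, with a mean of 0 to 7.51 in LNCaP and 0 to 66.4 in VCaP.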

How the results depend on the processing

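Counts of called member regions were recomputed under each alternative. With full lists they were 8 for LNCaP 0.1 against 0.03 nM (5 in the report), 2 for VCaP low doses (0) and 5 for the line difference at 0.03 and 0.06 nM (9). A summit inside the region gave 8 for LNCaP 0.1 against 0.03 nM and 1 for VCaP low doses, and a covered centre base 1 for VCaP low doses. Peaks in at least 8 libraries gave 29 for LNCaP 10 nM against low doses (44), 2 for VCaP 10 nM against low doses (16) and 10 for VCaP 10 nM against vehicle (23). A −log10 q of at least 5 gave 7 and 14 for those VCaP contrasts. No filter gave 1 for VCaP low doses. Normal scores gave 1 for VCaP low doses and 1 for VCaP 0.06 against 0.01 nM. The summit pileup was fitted only on regions with a usable value in every library of the fit. Its counts therefore leave out regions at 0 in any library. The summit pileup gave 14 for LNCaP low doses (29), 13 for LNCaP 10 nM against low doses, 1 for LNCaP 0.1 against 0.03 nM, 27 for LNCaP 10 nM against vehicle (74), 2, 4, 1 and 11 for VCaP low doses, 10 nM against low doses, 0.06 against 0.01 nM and 10 nM against vehicle, 17 for the lines in vehicle (82) and 0 for the line difference (4 at an unadjusted p under 0.05). Fitting only the groups compared gave 2 for LNCaP 0.1 against 0.03 nM, 15 for VCaP 10 nM against vehicle and 33 for the lines in vehicle. Without VCaP vehicle replicates 1 and 2 the counts were 2 for VCaP low doses and 8 for VCaP 10 nM against vehicle. The cause of these shifts was not tested, apart from the fewer regions or libraries that a filter or omission leaves.

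Leaving out each library in turn gave 3 to 6 for LNCaP 0.1 against 0.03 nM (fewest without 0.1 nM replicate 4), 26 to 46 for LNCaP 10 nM against low doses (fewest without 10 nM replicate 5), 26 to 31 for LNCaP low doses, 14 to 17 for VCaP 10 nM against low doses, 0 to 3 for VCaP low doses (most without 0.01 nM replicate 2) and 7 to 13 for the line difference. With the replicate number as a block, counts were 1 for VCaP low doses and 14 for the line difference, and within 1.5 times the reported count elsewhere. Deviations of same-numbered libraries correlated between −0.16 and 0.48 in LNCaP (median 0.12) and between 0.08 and 0.33 in VCaP (median 0.16). For differently numbered libraries the medians were −0.10 and −0.11, and the highest values 0.31 and 0.11. The numbers were not taken as pairs in the main fit, since not every LNCaP pair deviated together. Any deviation shared by a replicate number therefore stays in the spread of that fit. One alternative was chosen after seeing the data: without the 2 LNCaP libraries of lowest fold enrichment, vehicle replicate 5 and 0.03 nM replicate 5, the counts were 31 for LNCaP low doses, 48 for 10 nM against low doses and 7 for 0.1 against 0.03 nM.

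The higher share of called regions moved by over 10 percentage points for LNCaP low doses (89.7%) to 100% with full lists and 78.6% with the pileup, for LNCaP 10 nM against vehicle (74.3%) to 89.7% with full lists, 62.2% with normal scores and 59.3% with the pileup, for VCaP 10 nM against low doses (81.2%) to 92.9% by fold enrichment and 25% with the pileup, for the lines in vehicle (43.9%) to 56.3% with full lists and for the line difference (66.7%) to 80% with full lists. No named region changed sign under any of these settings. The line difference at PDK4 27.1 kb upstream was 0 with a summit inside the region, and at PDK4 63.6 kb it missed the threshold with normal scores, the pileup or the −log10 q limit.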
